A study of Homo sapiens with 2 samples.

Results

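MTFP1, SLMO1, DIABLO and RAB5IF are 4 nuclear genes with products in mitochondrial fission, intermembrane lipid transfer, apoptosis and membrane protein assembly, and all 4 are listed among the 104 genes from an RNA immunoprecipitation and sequencing (RIP-seq) experiment on SYNJ2BP. They were taken from the list by gene symbol, on the roles of their products. SYNJ2BP sits in the outer mitochondrial membrane (OMM), held there by its C-terminal end, and its PDZ domain, a fold that binds the tails of other proteins, reaches into the cytosol. Endogenous SYNJ2BP was pulled down with an antibody from untreated HEK293T cells, a transformed line of human embryonic kidney cells, and the reference was a pulldown with IgG from cells of the same line. There is 1 SYNJ2BP IP library and 1 IgG library. The experiment asks which mRNAs SYNJ2BP holds. Values are FPKM per gene, which divide the fragments by the transcript's length and by all mapped reads, so that levels of different genes are on one scale per length. The transcript length behind an FPKM is not given for any of the 4 genes, and folds between genes carry that limit. The listed locus, much longer than the gene for MTFP1, DIABLO and RAB5IF, need not be that length. A single library on each side gives no spread between replicates, and no difference given here has an error or a test. The listed genes were selected by the authors, which leaves the depth of both libraries unknown and the cell line without a check against marker genes. The paper reports the listed mRNAs as enriched in the SYNJ2BP IP over IgG. Shares, medians and ranks over the list therefore compare genes already chosen for enrichment, and are no background of unselected genes.

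Nearly all mitochondrial proteins are encoded in the nucleus, made in the cytosol and imported, and some of their mRNAs are held at the mitochondrial surface, where the protein can be made next to the import machinery. The 4 products do not all work in the same membrane or space of the cell. Mitochondria divide when the GTPase DRP1 constricts the outer membrane, and MTFP1, a protein of the inner membrane, promotes that division. SLMO1 (named PRELID3A in RefSeq) belongs to the PRELI family, which pairs with TRIAP1 to carry phospholipids across the intermembrane space. DIABLO, also called SMAC, waits in the intermembrane space and, once released in apoptosis, binds the inhibitor of apoptosis proteins and lifts their block on caspases. RAB5IF was first described as a partner of RAB5, and has since been placed with TMCO1 in a complex that helps insert membrane proteins at the endoplasmic reticulum, and in the assembly of respiratory chain complexes.

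The 4 mRNAs lay in different parts of the list in the SYNJ2BP IP, DIABLO near the top and the other 3 in the lower part. DIABLO had the highest level of the 4 and ranked 7 of 104, while MTFP1 ranked 80, RAB5IF ranked 94 and SLMO1 ranked 99. The FPKM of DIABLO in the SYNJ2BP IP was 15.6 times that of MTFP1, 38.3 times that of RAB5IF and 65.2 times that of SLMO1. Of the other listed genes, 89 lay between SLMO1 and DIABLO, 6 lay above DIABLO and 5 lay below SLMO1. The median over the 4 mRNAs was 3.59, against 12.4 over the 100 other listed genes, and 3 of the 4 were below the median of the whole list.

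**Figure D1:**
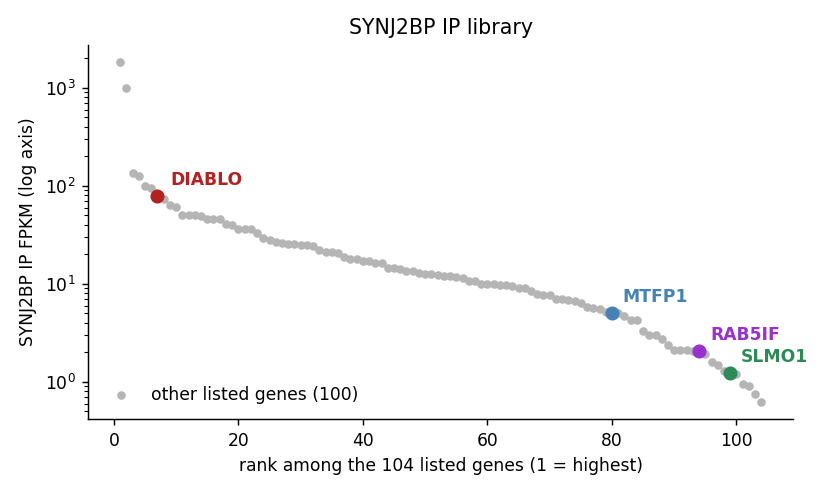
SYNJ2BP IP FPKM (log axis) of each of the 104 listed genes against its rank in that library; coloured points are the 4 mRNAs and grey points the 100 other listed genes, with 1 library and no error bars. DIABLO sits at rank 7 with 79.7, while MTFP1 (5.10), RAB5IF (2.08) and SLMO1 (1.22) sit at ranks 80, 94 and 99.

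For MTFP1 (ENSG00000242114, hg19 chr22:30727976-30825045), the fission factor, the SYNJ2BP IP library had an FPKM of 5.10 and the IgG library had 2.71e-181. An FPKM of that size corresponds to no whole fragment in a library of any practical depth, so the IgG value is an estimate at 0 and its plain ratio was not read. On the log2 scale, after 1 was added to both FPKM values, the difference of MTFP1 was 2.61. Only 3 listed genes had a lower listed IgG FPKM than MTFP1, but the order among estimates at 0 has no readable meaning.

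For SLMO1 (ENSG00000141391, hg19 chr18:12407894-12432237), the lipid carrier, the SYNJ2BP IP library had an FPKM of 1.22 and the IgG library had 1.36e-06. It had the lowest level of the 4 mRNAs in the SYNJ2BP IP and the smallest log2 difference, at 1.15. At this level the amount added to both values is close to the measured value itself, and the log2 difference says little beyond that level.

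For DIABLO (ENSG00000184047, hg19 chr12:122688089-122751068), the apoptosis factor, the SYNJ2BP IP library had an FPKM of 79.7 and the IgG library had 0.211. DIABLO is the only one of the 4 with an IgG FPKM that can be read, so its plain ratio of 378.1 has a meaning as a ratio. That ratio ranked 4 among the 36 listed genes that reached 0.01 in IgG, whose median ratio was 112.5. All 36 come from a list of enriched mRNAs, and the lowest ratio among them was 84.8, for ATP5E. The IgG FPKM of DIABLO was near the median of those 36 genes in IgG, 0.260. The log2 difference of DIABLO was 6.06, rank 5 of 104.

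For RAB5IF (ENSG00000101084, hg19 chr20:34894257-35274619), the assembly factor, the SYNJ2BP IP library had an FPKM of 2.08 and the IgG library had 3.53e-21, again an estimate at 0. Its log2 difference was 1.62. In the SYNJ2BP IP, RAB5IF was 1.70 times as high as SLMO1, and MTFP1 was 2.45 times as high as RAB5IF. Whether these steps exceed the spread between libraries was not measured.

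A total of 3 of the 4 mRNAs (MTFP1, SLMO1 and RAB5IF) had an IgG FPKM under 0.01, against 68 of all 104 listed genes (65.4%). Over 4 genes, that count was not read as a difference from the list. The same 3 mRNAs carry the mark for validation by crosslinking immunoprecipitation (CLIP), and DIABLO does not. Of the 11 genes with that mark, 10 had an IgG FPKM under 0.01. The paper reports that every RIP-seq hit it followed up by CLIP was enriched, with and without the translation inhibitor puromycin. Several negative control mRNAs were not enriched by CLIP. It then compared the 11 mRNAs at the OMM in cells with and without SYNJ2BP. Some were significantly reduced without SYNJ2BP, in puromycin-treated cells only. The paper names MTFP1 and RAB5IF among the reduced mRNAs, and SLMO1, though assayed, is not among them. For MTFP1 and RAB5IF it also reports loss from the OMM under heat and arsenite stress, and less newly made protein, in cells without SYNJ2BP. DIABLO was not among the mRNAs followed up, so its higher FPKM here has no such check.

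**Figure D2:**
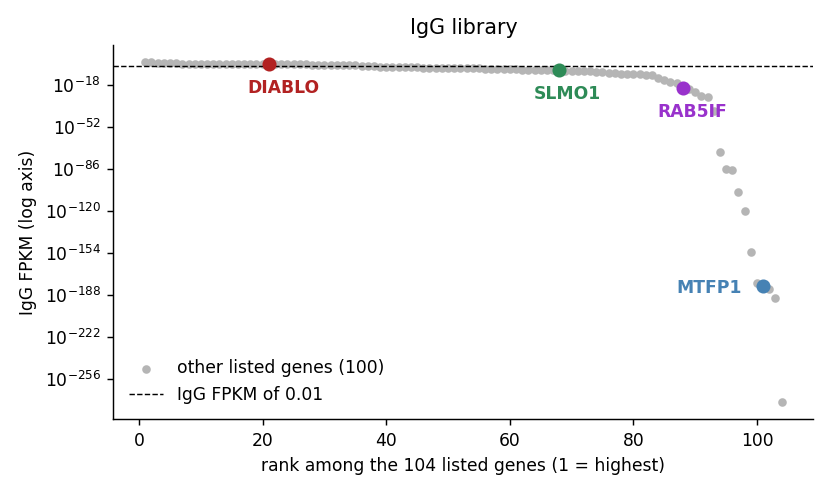
IgG FPKM (log axis) of each of the 104 listed genes against its rank in the IgG library; coloured points are the 4 mRNAs, grey points the 100 other listed genes, and the dashed line an FPKM of 0.01. DIABLO (0.211) is above the line, and SLMO1 (1.36e-06), RAB5IF (3.53e-21) and MTFP1 (2.71e-181) are below it.

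On the log2(FPKM + 1) scale, a difference of 4-fold or more in favour of the SYNJ2BP IP was reached by 2 of the 4 mRNAs, DIABLO and MTFP1, against 87 of the 104 listed genes (83.7%). The median log2 difference was 2.12 over the 4 mRNAs and 3.72 over the 100 other listed genes. For a gene at 0 in IgG, 4-fold on this scale means an FPKM of 3 or more in the SYNJ2BP IP, so this count separates MTFP1 from RAB5IF and SLMO1 by their SYNJ2BP IP levels alone. Among all listed genes, 17 were under 4-fold, and 16 of these 17 had an IgG FPKM under 0.01. The highest SYNJ2BP IP FPKM among the 17 was 2.72.

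The order of DIABLO and the other 3 mRNAs depended on how the IgG values were read. With 1 added, DIABLO had the largest log2 difference of the 4, but MTFP1 passed it when less than about 0.0144 was added, RAB5IF when less than about 0.00565 was added and SLMO1 when less than about 0.00329 was added. With 0.01 added, the differences were 9.00 for MTFP1, 8.50 for DIABLO, 7.71 for RAB5IF and 6.95 for SLMO1. The order of MTFP1, RAB5IF and SLMO1 among themselves was the same at every amount added between 1e-06 and 100. With IgG values under 0.01 raised to 0.01, a reading added after the values were seen, the ratio was 510.1 for MTFP1, 378.1 for DIABLO, 207.9 for RAB5IF and 122.3 for SLMO1. Raised to 0.1, these were 51.0 for MTFP1, 20.8 for RAB5IF and 12.2 for SLMO1, all under that of DIABLO. The level of SLMO1 and RAB5IF below MTFP1 was set by the SYNJ2BP IP library, while the place of DIABLO among the 4 depends on the IgG value assumed for the others.

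**Figure D3:**
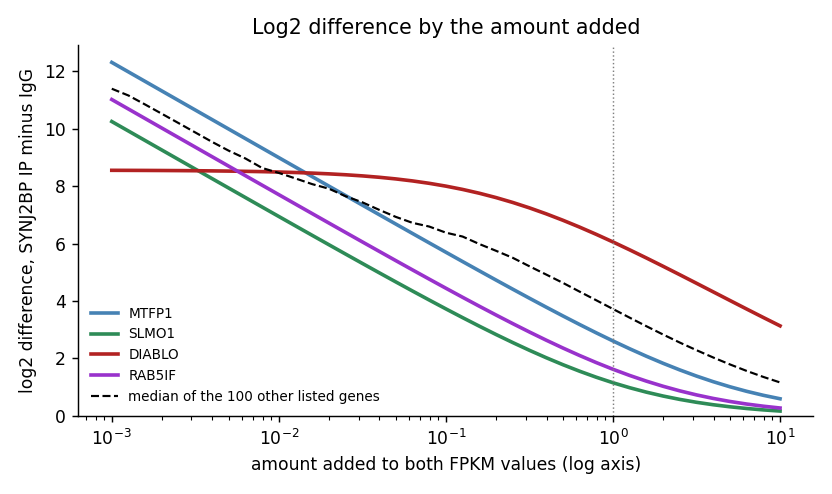
Log2 difference, SYNJ2BP IP minus IgG (vertical axis), against the amount added to both FPKM values (log axis); solid lines are the 4 mRNAs, the dashed line is the median of the 100 other listed genes, and the dotted line marks the amount of 1 used elsewhere. The DIABLO line levels off to the left, where its plain ratio is reached, and the other 3 lines keep climbing and cross it at 0.0144 (MTFP1), 0.00565 (RAB5IF) and 0.00329 (SLMO1).

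Beside 2 other groups of listed mitochondrial mRNAs, 1 for the respiratory chain and ATP synthase and 1 for mitochondrial gene expression and matrix enzymes, the 4 genes lay near the top and at the bottom. TMEM50A, which the study also followed up by CLIP, is in none of these groups. Of the 14 mRNAs in the 3 groups, DIABLO ranked 2 in the SYNJ2BP IP, after NDUFS7, a subunit of respiratory complex I, with 99.5. MTFP1, RAB5IF and SLMO1 ranked 12, 13 and 14. The other 10 all had more than MTFP1, and the lowest of them was UQCR11, a subunit of complex III, with 6.64. The 4 genes had a median FPKM of 3.59 in the SYNJ2BP IP, against 17.7 over the 4 respiratory chain and ATP synthase mRNAs and 15.3 over the 6 mRNAs for mitochondrial gene expression and matrix enzymes. All 10 of those other mRNAs reached 4-fold on the log2(FPKM + 1) scale, and 7 of the 10 had an IgG FPKM under 0.01. With 4 genes of unlike levels, 1 of them at the upper end, the lower median rests on MTFP1, RAB5IF and SLMO1, and the difference between the groups has no test.

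**Figure D4:**
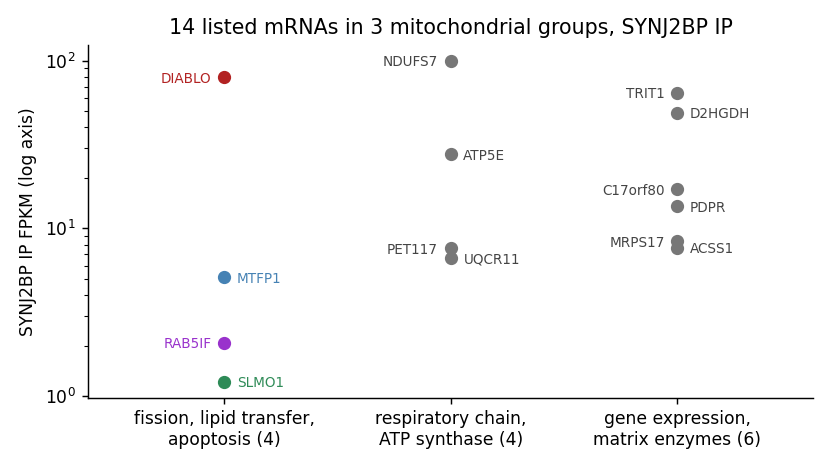
SYNJ2BP IP FPKM (log axis) of 14 listed mRNAs in 3 mitochondrial groups, each point 1 gene in 1 library. MTFP1, RAB5IF and SLMO1 lie below all 10 genes of the other groups, and DIABLO (79.7) lies between NDUFS7 (99.5) and TRIT1 (64.4).

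The genes most like each mRNA were found by the distance between their log2(FPKM + 1) values over the 2 libraries. MTFP1 was nearest to CSNK1G1, a casein kinase, with 5.00 in the SYNJ2BP IP at a distance of 0.0238, and to SPRYD7, with 5.21 at 0.0256. SLMO1 was nearest to FLJ00104, with 1.19 in the SYNJ2BP IP at a distance of 0.0194, and to the zinc finger gene ZNF709, with 1.30 at 0.0503. RAB5IF was nearest to GALNT4, an enzyme that starts O-linked glycans, with 2.08 in the SYNJ2BP IP at a distance of 0.00252, and to CTD-2207O23.3, with 2.10 at 0.00777. DIABLO was nearest to the zinc finger gene ZNF260, with 74.0 in the SYNJ2BP IP and 0.262 in IgG, at a distance of 0.121. Its next nearest gene was AK1, an adenylate kinase, with 94.9 in the SYNJ2BP IP and 0.241 in IgG, at 0.251. The nearest genes are also the next ones in the order of the SYNJ2BP IP level, except that KCTD9, with 1.91, is the next below RAB5IF. MTFP1, SLMO1, RAB5IF and their nearest genes have an IgG FPKM under 0.01, so their distances are set almost wholly by the SYNJ2BP IP level. For these mRNAs the match between distance and order follows from how the distance is made. None of these neighbours in the order is a mitochondrial mRNA of the groups above.

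The other genes of each pathway were looked up in lists built around the 4 mRNAs, with the exception of the pair SYNJ2BP and RRBP1, so that each such list holds at least 1 listed gene by construction. Of the 20037 protein-coding genes on RefSeq chromosomes, 89 (0.444%) are listed, and at that share the lack of a second listed gene was not read as a result. Of 17 fission and fusion genes, MTFP1 was the only one listed, and the fission GTPase gene DNM1L, its receptors MFF and FIS1 and the fusion genes MFN1, MFN2 and OPA1 were not among the 104. Of 15 genes for lipid transfer and phospholipid synthesis in mitochondria, SLMO1 was the only one listed, without its partner TRIAP1 or its relatives PRELID1 and PRELID3B. Of 22 genes of the mitochondrial route to apoptosis, DIABLO was the only one listed, without HTRA2 or CYCS, which encode other intermembrane space proteins released in apoptosis, and without XIAP, a target of DIABLO. Of 22 genes for membrane protein insertion and RAB5 itself, RAB5IF was the only one listed, without TMCO1. SYNJ2BP and its partner at the endoplasmic reticulum, RRBP1, were not listed either. Genes outside the list have no FPKM here, so nothing can be said of their levels in either library.

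The listed loci differ in how closely they match the genes. The locus of SLMO1 is 24.3 kb long, as is the gene in RefSeq (GRCh38.p14), a ratio of 1.00. The locus of DIABLO is 63.0 kb, 3.18 times the gene, that of MTFP1 is 97.1 kb, 29.5 times the gene, and that of RAB5IF is 380.4 kb, 56.1 times the gene. RAB5IF had the highest such ratio of the 92 listed genes matched in RefSeq and MTFP1 ranked 3, while the median over the 92 was 1.22.

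The span around each gene can be read from its neighbours in the same annotation. MTFP1 is flanked by SEC14L2 and SEC14L3, which leave 22.4 kb between them, and its listed locus is 4.34 times as long as that interval. DIABLO overlaps the glycosyltransferase gene B3GNT4 and LOC128125816 and lies between LRRC43 and VPS33A, and its listed locus is 2.41 times the interval of 26.1 kb between those genes. RAB5IF shares sequence with SLA2 and with TGIF2-RAB5IF, a readthrough gene, and its locus is 6.58 times the 57.8 kb between TGIF2 and NDRG3. SLMO1 overlaps no protein-coding gene and lies between AFG3L2, a mitochondrial protease gene, and SPIRE1, with a locus well inside the interval of 69.3 kb. These intervals are of a later build than the listed loci. Which transcripts the FPKM values of the 4 mRNAs cover is not stated in the sources used here, also where locus and gene are of equal length. Some other listed genes share an identical locus at unlike levels, as on chromosome 6, with 21.2 and 6.78 in the SYNJ2BP IP at a shared locus of 31.2 kb. On chromosome 16, a pair with a shared locus of 303.0 kb had closer levels, 14.2 and 12.6. An FPKM therefore need not cover the whole listed locus. None of the 4 loci overlaps the locus of another listed gene.

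**Figure D5:**
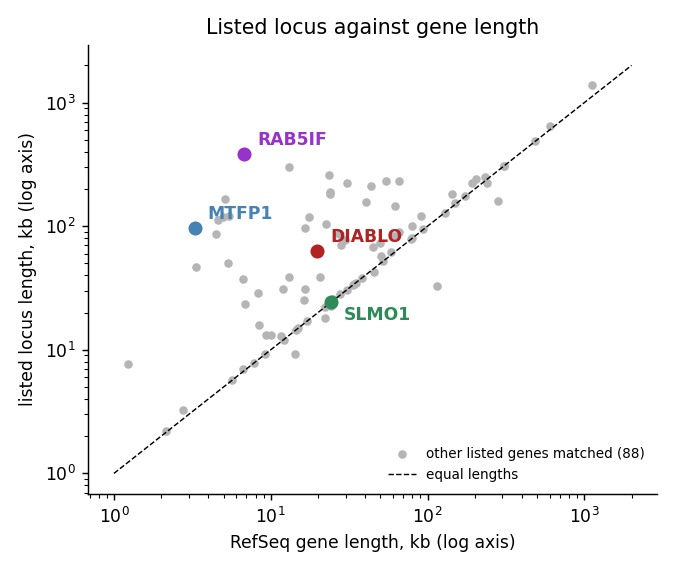
Length of the listed locus against the length of the gene in RefSeq, both in kb on log axes, for the 4 mRNAs (coloured) and the 88 other listed genes with a match (grey); the dashed line marks equal lengths. SLMO1 lies on the line, and DIABLO (63.0 kb), MTFP1 (97.1 kb) and RAB5IF (380.4 kb) lie above it.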

How the data were processed

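RIP-seq was analysed from 1 SYNJ2BP IP library and 1 IgG library of HEK293T cells. The deposited table gives gene-level FPKM of 104 genes, which the authors calculated. Per the submitters' processing notes, the build was hg19 and the tools included HISAT2 (2.0.4) and cutadapt (1.9.3), along with Cuffdiff (2.2.1) and Cufflinks, without roles. Neither the annotation nor the rule of listing is given in the sources used here. The authors' deposited fold change column, a ratio of both FPKM values, was not used. The 4 members, the gene lists and the alternatives were chosen with earlier results of these data known.

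An amount of 1 was added to every FPKM before taking log2, and the IgG value was subtracted from that of the SYNJ2BP IP. Plain ratios were read at an IgG FPKM of at least 0.01. No test was possible with 1 library per condition. Genes named are the members, for each the 2 most alike and the next above and below in the SYNJ2BP IP, genes of the pathway lists, and listed mRNAs of 2 other mitochondrial groups. Neighbouring genes in RefSeq are named for the loci. Symbols were matched to RefSeq (GRCh38.p14), of which 81 are current, 11 older and 12 unmatched, and only its names, lengths and neighbours were used. The formula was tested on simulated data built with the same formula, which checks the arithmetic and not the choice of the amount added. Python 3.11.15, numpy 2.4.6, pandas 2.3.3 and matplotlib 3.10.9 were used.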

Additional observations from a re-analysis of the deposited data

How the results depend on the processing

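Sizes moved with the amount added, which cannot change the sign of a difference. With 0.1 added, log2 differences were 5.70 for MTFP1, 3.73 for SLMO1, 8.0 for DIABLO and 4.45 for RAB5IF, with medians of 5.07 over the 4 and 6.38 over the 100 other listed genes. With 0.01 added they were 9.00 for MTFP1, 6.95 for SLMO1, 8.50 for DIABLO and 7.71 for RAB5IF, with medians of 8.10 over the 4 and 8.46 over the others. With 10 added they were 0.59 for MTFP1, 0.17 for SLMO1, 3.14 for DIABLO and 0.27 for RAB5IF, with medians of 0.43 over the 4 and 1.16 over the others. At least 4-fold higher were 4 of the 4 with 0.1 or 0.01 added, as were 104 of the 104 listed genes, and 1 of the 4 with 10 added, beside 23 of the 104. The limit of 2-fold was reached by 4 of the 4 and 100 of the 104, and that of 8-fold by 1 of the 4 and 70 of the 104. Among genes with a SYNJ2BP IP FPKM of at least 5, where 2 of the 4 remain, the medians were 4.33 over those 2 and 4.12 over the others, but this filter removes the low members by the level that sets their difference and says nothing of the order, and at a minimum of 1 the median of the others was 3.75. Without overlapping loci, clone-based or readthrough names, 86 genes were left, the median of the others was 3.82, and MTFP1, SLMO1 and RAB5IF ranked 69, 84 and 80 in the SYNJ2BP IP, with DIABLO at 7. The members with IgG values near 0 numbered 3 at limits of 0.001 and 0.1. No paired analysis was possible because there was 1 library from each pulldown. Depth is unknown, so counting error could not be given.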

Other observations

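The 14 listed mRNAs of the 3 mitochondrial groups, which leave out TMEM50A on chromosome 1, are spread unevenly over chromosomes, a pattern noticed after the values were seen and given as a description only. Of the 14, 4 lie on chromosome 20, namely RAB5IF, PET117, ACSS1 and ATP5E. That is 28.6% of the 14, while chromosome 20 holds 8 of all 104 listed genes (7.69%) and 2.68% of the protein-coding genes on RefSeq chromosomes. Chromosome 20 holds more of the 14 than any other chromosome, and the whole list is uneven too. Chromosome 16 holds 11 of the 104 listed genes (10.6%) and 4.26% of the protein-coding genes, with 1 of the 14, PDPR. MTFP1, SLMO1 and DIABLO each lie on a chromosome with no other gene of the 14.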
